A study of Mus musculus with 3 samples.

Results

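Arterial endothelium of the aorta-gonad-mesonephros region (AGM) was taken from a droplet single-cell RNA dataset of the E10.5 mouse embryo as 141 of 9492 deposited cell barcodes. A barcode was a member if it had at least 1000 UMIs (unique molecular identifiers, 1 per captured transcript), at least 500 genes and at most 10% mitochondrial UMIs, which 9383 barcodes met. It also needed at least 5 summed UMIs of the endothelial genes Cdh5, Kdr, Emcn, Cldn5 and Plvap, no UMI of the blood regulators Runx1, Spi1 and Myb, and at least 2 summed UMIs of the arterial genes Gja4, Gja5, Dll4 and Sox17. The conditions on endothelial and blood genes were met by 2091 barcodes, of which the members were 6.74% (95% exact binomial interval 5.71 to 7.90%). The other 1950 barcodes of the same gate were the comparison group. The members were thus chosen by the counts of these genes, which are given as a description only.

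The series profiled the AGM, the region around the dorsal aorta in which the first haematopoietic stem cells bud from the arterial wall. Pooled AGM regions from embryos of 28 to 32 somite pairs gave 3 sorted populations: live Ter119- cells, called the niche, endothelial cells (Ter119-CD31+VCad+CD41-cKit+) and T1-preHSCs (Ter119-CD31+VCad+CD41lowcKit+). Each was run on 2 lanes with 10x version 2 chemistry, and the labels name no genotype or treatment. The deposited matrix pools the sorts, and no label ties its 8 barcode suffixes, called libraries 1 to 8 here, to a sort, so it was treated as 1 sample and no test could be made. The endothelial and T1-preHSC sorts required cKit and the niche sort did not, so the members can come from gates that differ in this antigen.

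Arteries and veins of the embryo acquire different gene programmes before and while blood flow shapes them. In arterial endothelium, VEGF signalling through Kdr and the co-receptor Nrp1 induces the Notch ligand Dll4, Notch receptors activate Hey1 and Efnb2 through the DNA-binding protein RBPJ, and SoxF factors such as Sox17 and Sox7 act beside them. Gja4 and Gja5 encode connexin 37 and connexin 40, the gap junction channels of arterial endothelium, and Nr2f2 (COUP-TFII) promotes venous identity. Slowing of the cell cycle accompanies arterial maturation, and a small share of arterial cells, the haemogenic endothelium, turns on Runx1 and forms blood.

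The 250 bases of RefSeq sequence before a gene's start (GRCm38.p6, the mm10 assembly) are shown for 4 genes because they carry, or lack, the core of the RBPJ binding motif, through which Notch acts. Gja4 (chr4:127314040-127314289, minus strand) and Dll4 (chr2:119325534-119325783, plus strand) are genes of the rule, and Depp1 (chr6:116650434-116650683, plus strand), listed in the files as 8430408G22Rik, and Ecm1 (chr3:95739570-95739819, minus strand) were higher in the members, as described below. Each window ends at the base before the RefSeq start, though GENCODE M21 begins Depp1 at 116650609, inside its window. Each is printed 5′ to 3′ on the strand of its gene, with TGGGAA on either strand in capitals.
Gja4: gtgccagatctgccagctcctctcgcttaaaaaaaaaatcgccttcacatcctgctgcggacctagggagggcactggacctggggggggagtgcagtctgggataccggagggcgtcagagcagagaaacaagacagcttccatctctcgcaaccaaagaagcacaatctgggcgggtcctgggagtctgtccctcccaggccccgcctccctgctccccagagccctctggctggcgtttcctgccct
Dll4: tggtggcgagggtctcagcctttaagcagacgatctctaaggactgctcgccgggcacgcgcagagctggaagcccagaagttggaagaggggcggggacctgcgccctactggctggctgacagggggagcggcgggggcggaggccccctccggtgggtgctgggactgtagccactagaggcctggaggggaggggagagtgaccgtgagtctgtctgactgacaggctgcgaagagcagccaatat
Depp1: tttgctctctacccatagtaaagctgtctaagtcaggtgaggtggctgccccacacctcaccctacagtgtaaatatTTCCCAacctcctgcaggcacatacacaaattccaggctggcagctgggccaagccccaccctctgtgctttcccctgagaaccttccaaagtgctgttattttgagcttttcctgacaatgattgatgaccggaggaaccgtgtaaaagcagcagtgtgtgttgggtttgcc
Ecm1: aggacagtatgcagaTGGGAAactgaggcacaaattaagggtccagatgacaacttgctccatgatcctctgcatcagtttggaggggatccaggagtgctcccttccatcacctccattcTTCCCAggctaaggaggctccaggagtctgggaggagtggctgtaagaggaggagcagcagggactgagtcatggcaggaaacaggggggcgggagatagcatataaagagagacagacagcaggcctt
The Gja4 and Dll4 windows held no TGGGAA, and neither did that of Gja5, so it was found in 0 of the 3 windows of rule genes that the reference table covers. The Depp1 window held 1, 173 bases before the start, and the Ecm1 window held 2, the nearer 129 bases before the start. Of the 16 genes called higher below, 11 were matched to 13 windows, and 5 of these (38.5%) held TGGGAA, as did 21.6% of all 32841 windows of 27018 genes. Among 22 windows of the arterial gene list the share was 18.2%. The core of SOX motifs, ACAAT on either strand, was in 1 of the 3 rule-gene windows, that of Gja4, in the Depp1 window and in 27.7% of all windows. A match is a run of letters, not a shown binding site.

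Libraries 5 and 6 held 128 of the 141 members and most of the barcodes of the gate, with 54 members of 988 gate barcodes in library 5 (5.47%, 4.13 to 7.07%) and 74 of 954 in library 6 (7.76%, 6.14 to 9.64%). Libraries 1 to 4 held 3 members each, library 8 held 1 and library 7 none. The members had a median of 9054 UMIs (2385 to 32836), 2722 genes and 3.09% mitochondrial UMIs, against 7782 UMIs (1638 to 41175), 2529 genes and 3.11% in the other endothelial barcodes. A deeper barcode has more chances of holding 2 UMIs of the rule genes, and thinning every barcode to 3000 UMIs before the rule left 44 members. Summed counts were 1342622 UMIs over the members and 16232454 over the others. Of the deposited barcodes, 108 shared their 54 sequences with another library, and 1 member was among them.

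The endothelial genes of the rule say nothing of the arterial label, since both groups had to carry them. Cdh5 (VE-cadherin) stood at 315 CPM (UMIs of a gene per 1000000 UMIs) in the members and 309 CPM in the others, and Kdr (VEGF receptor 2) at 492 and 472 CPM. Cldn5, a tight junction protein, had 1397 against 1095 CPM, Plvap, of the diaphragms of fenestrae and caveolae, 349 against 331 CPM, and the sialomucin Emcn 667 against 813 CPM. The label was read instead from a list of arterial genes outside the rule, given below. That list was chosen with earlier results of these data known, so it is not independent of them. Of the sort antigens, Pecam1 (CD31) was at 229 and 168 CPM, Kit at 17.1 and 13.6 CPM, and Itga2b (CD41) was not seen in the members and at 3.63 CPM in the others.

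The 4 arterial genes did not contribute equally to membership. Gja4 had 226 CPM (95% Poisson interval 201 to 253 CPM, like all intervals here for counting error only) in the members against 2.53 CPM in the others, where at most 1 UMI of the 4 genes was allowed. Sox17 had 96.8 CPM (80.9 to 115) against 12.6 CPM, Dll4 61.1 CPM (48.6 to 75.8) against 4.68 CPM, and Gja5 29.0 CPM (20.7 to 39.7) against 0.0616 CPM. Sox17 was present in 82 members (58.2%), Gja4 in 78 (55.3%), Dll4 in 60 (42.6%) and Gja5 in 14 (9.93%). The most common combinations were Sox17 alone in 34 members, Dll4 with Sox17 in 22, Gja4 with Dll4 in 22, Gja4 alone in 21 and Gja4 with Sox17 in 18. Of the members, 61 rested on a single gene, 68 on 2 genes, 11 on 3 and 1 on all 4. Per barcode Gja4 ranged from 0 through a median of 1 to 21 UMIs, Gja5 reached 8, Sox17 4 and Dll4 3.

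**Figure D1:**
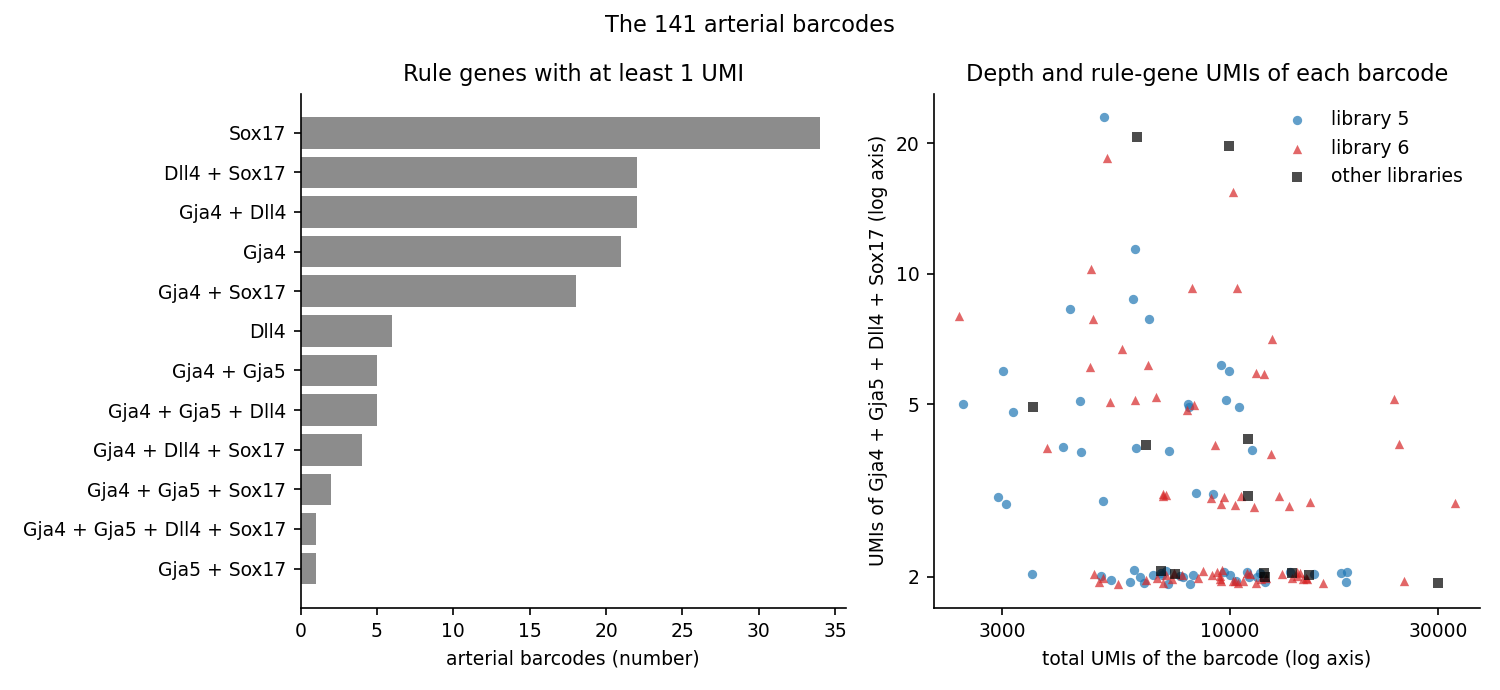
Left: number of members (bars, 141 in all) with each combination of the 4 rule genes. Right: summed UMIs of the 4 genes against total UMIs, both on log axes, 1 point per member, coloured by library; 34 members rest on Sox17 alone, and the members with the most rule-gene UMIs are not those with the most total UMIs.

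Levels in libraries can be set side by side for the rule genes. Gja4 had 292 CPM in the members of library 5, 193 CPM in those of library 6 and 251 CPM in the 12 members of libraries 1 to 4. Dll4 had 62.0, 63.0 and 60.6 CPM in the same order, and Sox17 82.7, 98.5 and 147 CPM. Gja5 had 34.5 CPM in library 5 and 138 CPM in libraries 1 to 4, and was lowest in library 6. Of the 16 Gja5 UMIs in libraries 1 to 4, 15 lay in 2 barcodes, so these levels rest on few cells.

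A rule gene was also read in barcodes that the other 3 genes had chosen, so that its own counts did not decide membership. Gja4 had 126 CPM (103 to 151) in the 85 barcodes with at least 2 UMIs of Gja5, Dll4 and Sox17, against 14.1 CPM in the rest of the gate, a ratio of 8.93 (7.05 to 11.3). Dll4 had 35.5 CPM (24.7 to 49.4) in 106 barcodes chosen without it against 7.41 CPM, a ratio of 4.79 (3.19 to 7.02). Sox17 had the smallest ratio, 45.2 CPM (30.7 to 64.1) in 83 barcodes against 17.9 CPM, or 2.52 (1.68 to 3.65). Gja5 had 28.4 CPM in 140 barcodes against 0.123 CPM. Barcodes with more of any 3 of these genes therefore also had more of the other.

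The members were then compared genome-wide with the other 1950 endothelial barcodes. Ratios are log2((CPM + 10) / (CPM + 10)), members over others, which understates the change of low genes. A gene was called at a ratio of at least 2-fold, with at least 50 CPM in the higher group and the same direction in every library that had 20 or more barcodes of both groups, which libraries 5 and 6 did. Of 7523 genes measured (at least 10 CPM in a group, genes of the rule left out), 16 were called higher (0.213%) and 4 lower (0.0532%). At 1.5-fold 65 were higher (0.864%) and 12 lower (0.16%). The median ratio of all measured genes was 0.03 log2 units. Higher genes outnumbered lower ones, and both were few. With a pseudocount of 50 CPM the only call left was Acta2. Without library 6, 11 genes were higher and 4 lower, and 10 of the 20 calls were kept. With Sox17 taken out of the rule 57 genes were higher and 10 lower, and among the 44 members left by thinning 191 were higher and 90 lower. Those 44 hold 3000 UMIs each, so few UMIs meet the limits of 10 and 50 CPM. Their direction was checked in library 5 only.

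**Figure D2:**
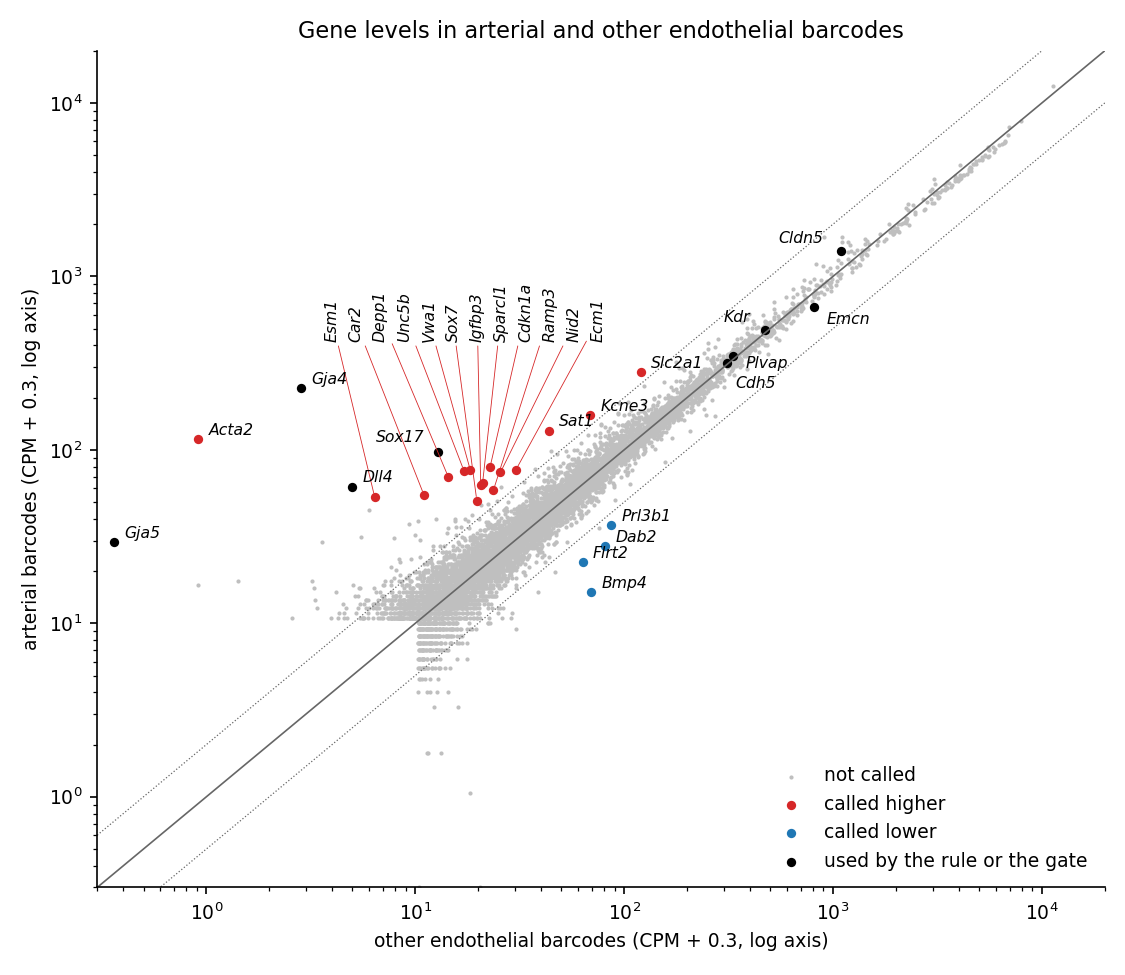
Level in the 141 members (vertical) against the other 1950 endothelial barcodes (horizontal), in CPM + 0.3 on log axes, 1 point per gene; red points are the 16 genes called higher, blue the 4 called lower and black the genes of the rule, with equality as a solid line and 2-fold as dotted lines. Most genes lie along equality.

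The arterial genes outside the rule, on a list chosen with earlier results of these data known, were higher in the members. Of the 22 genes of their list 21 had a positive ratio and Fbln5 a negative one. The median over the 22 was 0.70, against -0.01 over all 16048 genes with a UMI, and their summed level was 913 against 395 CPM. The 15 genes of at least 10 CPM in a group were all positive with a median of 0.98 (1.04 and 0.86 in libraries 5 and 6), but Hey1, Notch4, Sema3g, Tmem100 and Vegfc passed that limit only through the members, where they were high. The 10 genes with at least 10 CPM over the whole gate had a median of 0.90, against 0.02 over all 7156 genes kept that way. Of the list, 3 genes were called at 2-fold, Unc5b, Igfbp3 and Depp1 (8430408G22Rik), and 5 at 1.5-fold with Nrp1 and Gja1 added. The call asks for 50 CPM, which several of the others did not reach.

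Notch target and receptor genes came first by role. Hey1, a repressor induced by Notch, had 44.7 CPM (34.1 to 57.5) in the members against 5.73 CPM in the others, a log2 ratio of 1.80 that was 1.38 and 2.00 in libraries 5 and 6, and it missed the 50 CPM limit. Its counts per member ran from 0 to 4 with a median of 0, and 103 members had none. The Hey1 level was 29.9 CPM in the members of library 5, 52.5 CPM in library 6 and 60.6 CPM in libraries 1 to 4, all above the 5.73 CPM of the other barcodes. Notch1 had 104 against 72.3 CPM (0.46), the feedback inhibitor Nrarp 22.3 against 11.5 CPM (0.59) and the glycosyltransferase Lfng 17.1 against 9.18 CPM (0.50). Notch4, a receptor of endothelium, had 15.6 against 8.50 CPM (0.47), with opposite directions in library 5 (-0.84) and library 6 (0.89). Of the 20 genes of the Notch list 15 had positive and 5 negative ratios (Notch2, Dll1, Hes5, Heyl and Maml1), the median was 0.24, and 0 were called. Hey1, Lfng and Notch4 reached 10 CPM in the members only.

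Ephrins and guidance receptors position vessels and keep arteries apart from veins. Unc5b, a netrin receptor of arterial and tip endothelium on chromosome 10 (60762593 to 60831581, minus strand, GENCODE M21 on mm10), had 75.2 CPM (61.3 to 91.4) in the members and 16.8 CPM in the others. Its level was 71.2 CPM in the members and 19.6 CPM in the others of library 5, and 73.5 and 14.6 CPM in library 6, so both libraries gave members at like levels. The log2 ratio was 1.67 (1.46 and 1.76), and 48 members had a UMI. Efnb2, the ephrin ligand that marks arteries, had 39.5 CPM (29.6 to 51.6) against 12.2 CPM, a ratio of 1.16 (1.04 and 1.11), under the 50 CPM limit. Nrp1 had 320 CPM (291 to 352) against 177 CPM (0.82), with 0 to 15 UMIs per member and a median of 2. Of the 16 guidance genes 11 were positive with a median ratio of 0.20, 1 was called at 2-fold (Unc5b), and Robo4 (64.8 against 32.9 CPM) and Efna1 (232 against 125 CPM) joined it at 1.5-fold.

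Among transcription factors, Sox7, a SoxF factor like Sox17, was called higher, at 50.6 CPM (39.3 to 64.2) against 19.4 CPM, a ratio of 1.04. It was the 1 gene of 23 measured endothelial and haematopoietic factors called in that direction, and the median of the 23 was 0.08. Mecom, a regulator shared by arterial endothelium and haematopoietic stem cells, had 39.5 against 15.2 CPM (0.98), and Epas1, the hypoxia-inducible factor 2 alpha subunit, 35.8 against 16.3 CPM (0.80). Lyl1, a basic helix-loop-helix factor of blood and endothelium, was lower at 1.5-fold. Etv2, which initiates endothelial fate, had 61.1 against 25.4 CPM, but with opposite directions in the libraries (-0.42 and 0.95) and 40% of its member UMIs in 2 barcodes. The members had 6.89 CPM of Etv2 in library 5 and 28.9 CPM in library 6. Both are below the pooled level, which leaned on the few members of other libraries.

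Depp1 (8430408G22Rik in the files, chromosome 6, 116650609 to 116652794), a FOXO target gene, had 69.3 CPM (55.9 to 84.9) in the members against 14.1 CPM. The ratio was 1.72. It was 1.07 in library 5 (46.0 against 16.6 CPM) and 2.12 in library 6 (90.6 against 13.2 CPM), and 38 members had a UMI. Igfbp3, an insulin-like growth factor binding protein, was at 62.6 CPM (49.9 to 77.5) against 20.3 CPM (1.26). Vegfc, a ligand for VEGF receptors of the lymphatic branch that is made by arteries, had 17.1 against 2.90 CPM (1.07). Tmem100, a BMP9 and ALK1 target of arterial endothelium, had 16.4 CPM (10.3 to 24.8) against 0.616 CPM, with 50% of its UMIs in 2 members.

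**Figure D3:**
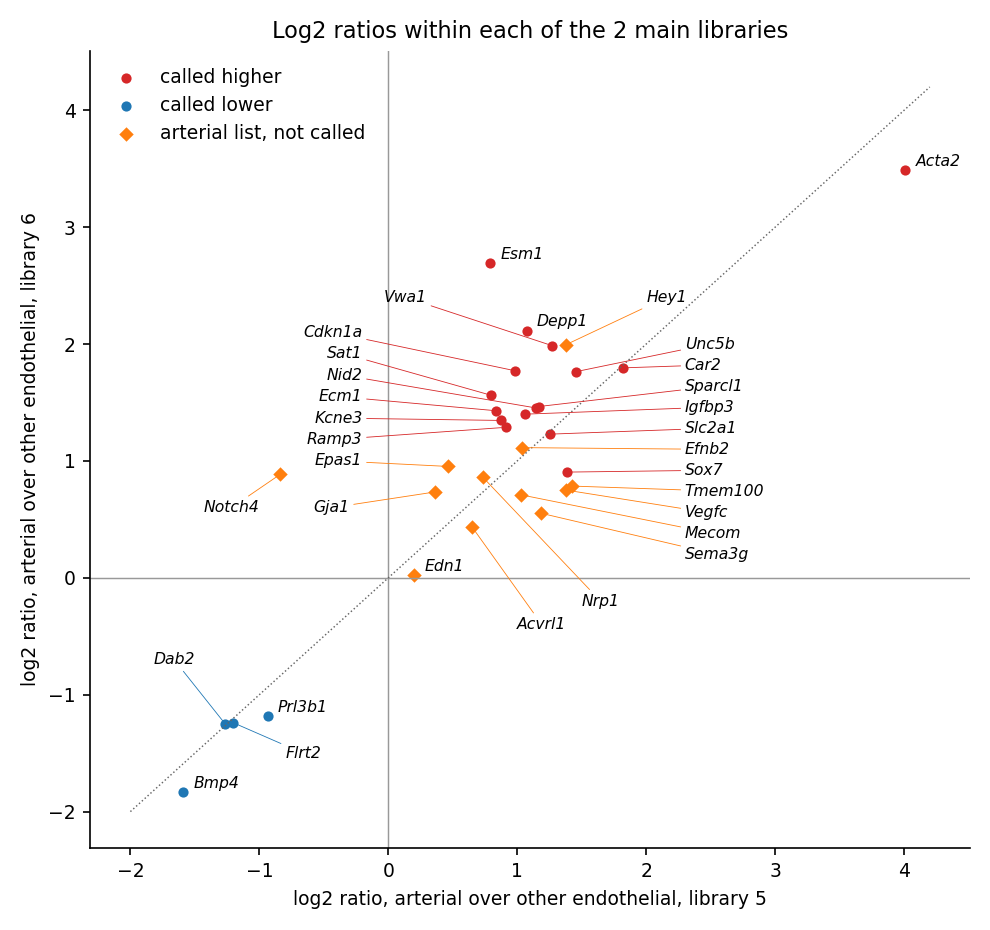
Log2 ratio of members over other endothelial barcodes in library 5 (horizontal) and library 6 (vertical) for the 20 genes called at 2-fold and 12 uncalled genes of the arterial list, 1 point per gene. The called genes lie in the same direction in both libraries by the rule of the call; among them Esm1 differs most, with 0.79 and 2.69.

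Vein-associated genes were lower in part. Of the 16 genes of the venous and lymphatic list 12 had negative and 4 positive ratios, with a median of -0.39. The median was -0.44 over the 12 genes of at least 10 CPM, or -0.20 and -0.79 in libraries 5 and 6. Their summed level was 826 CPM in the members and 1088 CPM in the others. Dab2, an endocytic adaptor enriched in venous endothelium on chromosome 15 (6299788 to 6440712), was called lower, at 27.6 CPM (19.4 to 38.0) against 80.6 CPM, a ratio of -1.27 that was -1.26 and -1.25 in libraries 5 and 6. Nr2f2 had 51.4 CPM (40.0 to 65.0) against 90.2 CPM (-0.71), and Nrp2, a neuropilin of veins and lymphatics, 159 against 245 CPM (-0.59). Both passed at 1.5-fold but not at 2-fold. Nr2f2 ranged from 0 to 10 UMIs per member, and 43 of 141 members had at least 1. At equal depth (3000 UMIs) its share was 11.6% in the members, 23.3% in the other endothelial barcodes and 23.5% in barcodes without endothelial UMIs, with no background share known. Aplnr, the apelin receptor, which marks veins and sprouting endothelium, had 230 against 301 CPM (-0.37), and the related factor Nr2f1 had 3.72 against 11.1 CPM (-0.62). Vwf went the other way, with 26.1 against 11.8 CPM (0.72).

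Bmp4, a secreted growth factor of the AGM region on chromosome 14 (46383520 to 46390669), was called lower with the largest ratio in that direction. It was at 14.9 CPM (9.10 to 23.0) in the members and 69.4 CPM in the others, a ratio of -1.67, with 16.1 against 68.6 CPM in library 5 and 13.1 against 72.4 CPM in library 6. A Bmp4 UMI was found in 13 members, and the highest count was 3. Of the 14 measured BMP and TGF-beta genes Bmp4 was called at 2-fold, while the BMP target Id1 (162 against 93.5 CPM, 0.74) was higher and Id2 (35.0 against 75.8 CPM, -0.93) lower at 1.5-fold. The list's median was 0.18. Flrt2, a membrane protein that binds Unc5 receptors, was called lower at 22.3 CPM (15.1 to 31.9) against 63.0 CPM (-1.17). Prl3b1, a prolactin family hormone gene better known from the placenta, was called lower at 36.5 CPM (27.0 to 48.2) against 86.2 CPM (-1.05), with UMIs in 21 members.

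Esm1, Kcne3 and Ramp3 were among the called genes. Esm1 (endocan, chromosome 13, 113209659 to 113218098), a secreted proteoglycan of sprouting endothelium, had 52.9 CPM (41.3 to 66.7) against 6.10 CPM, a ratio of 1.97. The libraries differed in size, with 23.0 against 9.04 CPM in library 5 and 76.1 against 3.33 CPM in library 6, and 24 members had a UMI. Kcne3, a potassium channel subunit, was called at 159 CPM (138 to 181) against 68.2 CPM (1.11), and Ramp3, a co-receptor for adrenomedullin, at 58.1 CPM (45.9 to 72.5) against 23.3 CPM (1.03). Adm, adrenomedullin itself, had 37.2 against 9.06 CPM (1.31), below the level the call asks for. Of 22 genes of the VEGF, Tie and peptide list, 2 were called higher (Esm1 and Ramp3) and the median was 0.08, with the apelin gene Apln at 31.3 against 29.6 CPM (0.06) and the receptor gene Flt4 at 135 against 118 CPM (0.17). The Tie2 receptor gene Tek had 57.4 against 78.9 CPM (-0.40).

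Matrix and basement membrane genes were mostly higher. Of the 26 listed, 19 had positive ratios with a median of 0.23, or 0.48 over the 16 with at least 10 CPM over the whole gate, and the summed level was 3890 against 2494 CPM. Nid2, a nidogen that links laminin and collagen IV, was called at 73.7 CPM (59.9 to 89.8) against 25.3 CPM (1.25), and Sparcl1, a matricellular protein, at 64.1 CPM (51.2 to 79.1) against 20.7 CPM (1.27). Fn1 (fibronectin, 187 against 94.0 CPM, 0.92), Sparc (1681 against 909 CPM, 0.88), Mmrn2 and Col4a1 brought the count to 6 at 1.5-fold. Outside that list, Vwa1, a matrix protein of basement membranes, was called at 76.0 CPM (61.9 to 92.2) against 18.1 CPM (1.62) and the secreted Ecm1 at 76.0 against 29.9 CPM (1.11). Among 21 junction genes with a UMI 20 were positive, with a median of 0.27 and 0 called at 2-fold, and Esam, an adhesion molecule of tight junctions, passed at 1.5-fold (437 against 282 CPM).

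Cell cycle genes differed in single genes rather than as whole lists, while glycolysis genes were mostly slightly higher. Slc2a1, the glucose transporter GLUT1, was called at 281 CPM (253 to 311) against 120 CPM, a ratio of 1.16 with 1.25 and 1.23 in the libraries, and 103 of 141 members had a UMI. Of 18 glycolysis genes it was the 1 called, 16 were positive and the median was 0.20. The list summed to 8034 CPM in the members and 6837 CPM in the others. Cdkn1a, the cyclin-dependent kinase inhibitor p21, was called at 79.0 CPM (64.6 to 95.5) against 22.5 CPM (1.45). Among the 11 measured genes of the list of cell cycle brakes and G1, which also holds cyclins, Btg2 (70.0 against 38.3 CPM, 0.73) was also higher at 1.5-fold, while the cyclin Ccnd2 was lower (156 against 272 CPM, -0.77). The 20 S phase and 20 G2/M genes had medians of 0.12 and -0.07, and 0 of either were called. Car2, a carbonic anhydrase, was called at 54.4 CPM (42.6 to 68.4) against 10.7 CPM (1.64), and Sat1, which acetylates polyamines, at 129 CPM (110 to 150) against 43.2 CPM (1.38).

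Other lists had few or no genes called at 2-fold between members and the other endothelial barcodes. The lists of Hox and positional genes (27 with a UMI), retinoic acid (14), cholesterol and lipid genes (20) and the response to blood flow (12) had 0 genes called, and their medians were 0.06, -0.05, 0.19 and -0.03. Over all 7523 measured genes 0.213% were called higher and 0.0532% lower, so 0 calls in lists this small is near that share. The same holds for the 0 calls in the Notch, junction, S phase and G2/M lists above. Klf2, induced by shear stress, had 19.4 against 28.0 CPM (-0.37). Of 7 measured genes linked to haematopoietic emergence 0 were called at 2-fold, though the whole list summed to 974 against 683 CPM. Cd34, a sialomucin of endothelium and progenitors, had 610 against 396 CPM (0.61), and the protein C receptor gene Procr 14.9 against 19.0 CPM (-0.22). Of 17 growth factors, Igfbp3 was called. Hbegf (94.6 against 47.6 CPM) and Igf2 were higher and Igf1 (84.9 against 156 CPM, -0.81) lower at 1.5-fold, and Pdgfb, which recruits mural cells, had 47.7 against 20.3 CPM (0.93).

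Detection was compared at equal depth after each barcode was thinned to 3000 UMIs, which 138 members, 1885 other endothelial barcodes and 6211 of the 6491 barcodes with no UMI of the 5 endothelial genes had. The 3, 65 and 280 shallower barcodes were left out. Esm1 was found in 9.42% of the members, 1.17% of the other endothelial barcodes and 0.0161% of the barcodes without endothelial UMIs. Hey1 was found in 14.5%, 1.49% and 3.77% in the same order, against 27.0%, 3.90% and 8.69% before thinning. No background share from cells known to lack Hey1 was measured. Unc5b was in 16.7%, 4.83% and 3.38%, and Slc2a1 in 53.6%, 28.0% and 17.1%. Bmp4 was in 2.17% of the members, 16.7% of the other endothelial barcodes and 8.81% of those without endothelial UMIs, so its share in the members was below both. Dab2 was in 11.6%, 20.8% and 5.80%.

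The gate was next divided by the summed UMIs of the 4 rule genes, with 1628 barcodes at 0, 322 at 1, 74 at 2, 30 at 3 or 4 and 37 at 5 or more. Just outside and just inside the threshold of 2 UMIs, Hey1 had 10.3 and 15.5 CPM, Unc5b 20.6 and 40.1 CPM, Depp1 (8430408G22Rik) 22.3 and 40.1 CPM, Nr2f2 88.4 and 73.7 CPM and Dab2 59.0 and 25.9 CPM. Most of the contrast lay further in. Hey1 stood at 4.65, 10.3, 15.5, 50.6 and 121 CPM from 0 to 5 or more UMIs, Unc5b at 15.9, 20.6, 40.1, 74.2 and 176 CPM, and Sparc at 875, 1054, 1338, 1772 and 2554 CPM. Nr2f2 went from 90.6 to 14.6 CPM over the same steps, Aplnr from 300 to 139 CPM and Nrp2 from 255 to 106 CPM. The levels of these 6 genes followed the order of the steps from 0 UMIs to 5 or more, apart from Aplnr, which had 308 CPM at 1 UMI.

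Other genes did not follow that order. Mecom had 14.4, 18.4, 12.9, 30.4 and 124 CPM, so only the barcodes with 5 or more UMIs were far above the others. Kcne3 stood at 61.6 CPM at 0 UMIs, 233 CPM at 3 or 4 and 69.5 CPM at 5 or more, and Esm1 had 3.43, 17.4, 34.9, 77.6 and 76.8 CPM. Etv2, most of whose member UMIs lay outside libraries 5 and 6, had 91.1 CPM at 3 or 4 UMIs and 3.66 CPM at 5 or more. Dab2 was already at 25.9 CPM at 2 UMIs and at 29.3 CPM at 5 or more. The median depth was 7503, 8841.5, 9616.5, 9177 and 6486 UMIs per barcode, so the barcodes with the most rule-gene UMIs were the shallowest.

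**Figure D4:**
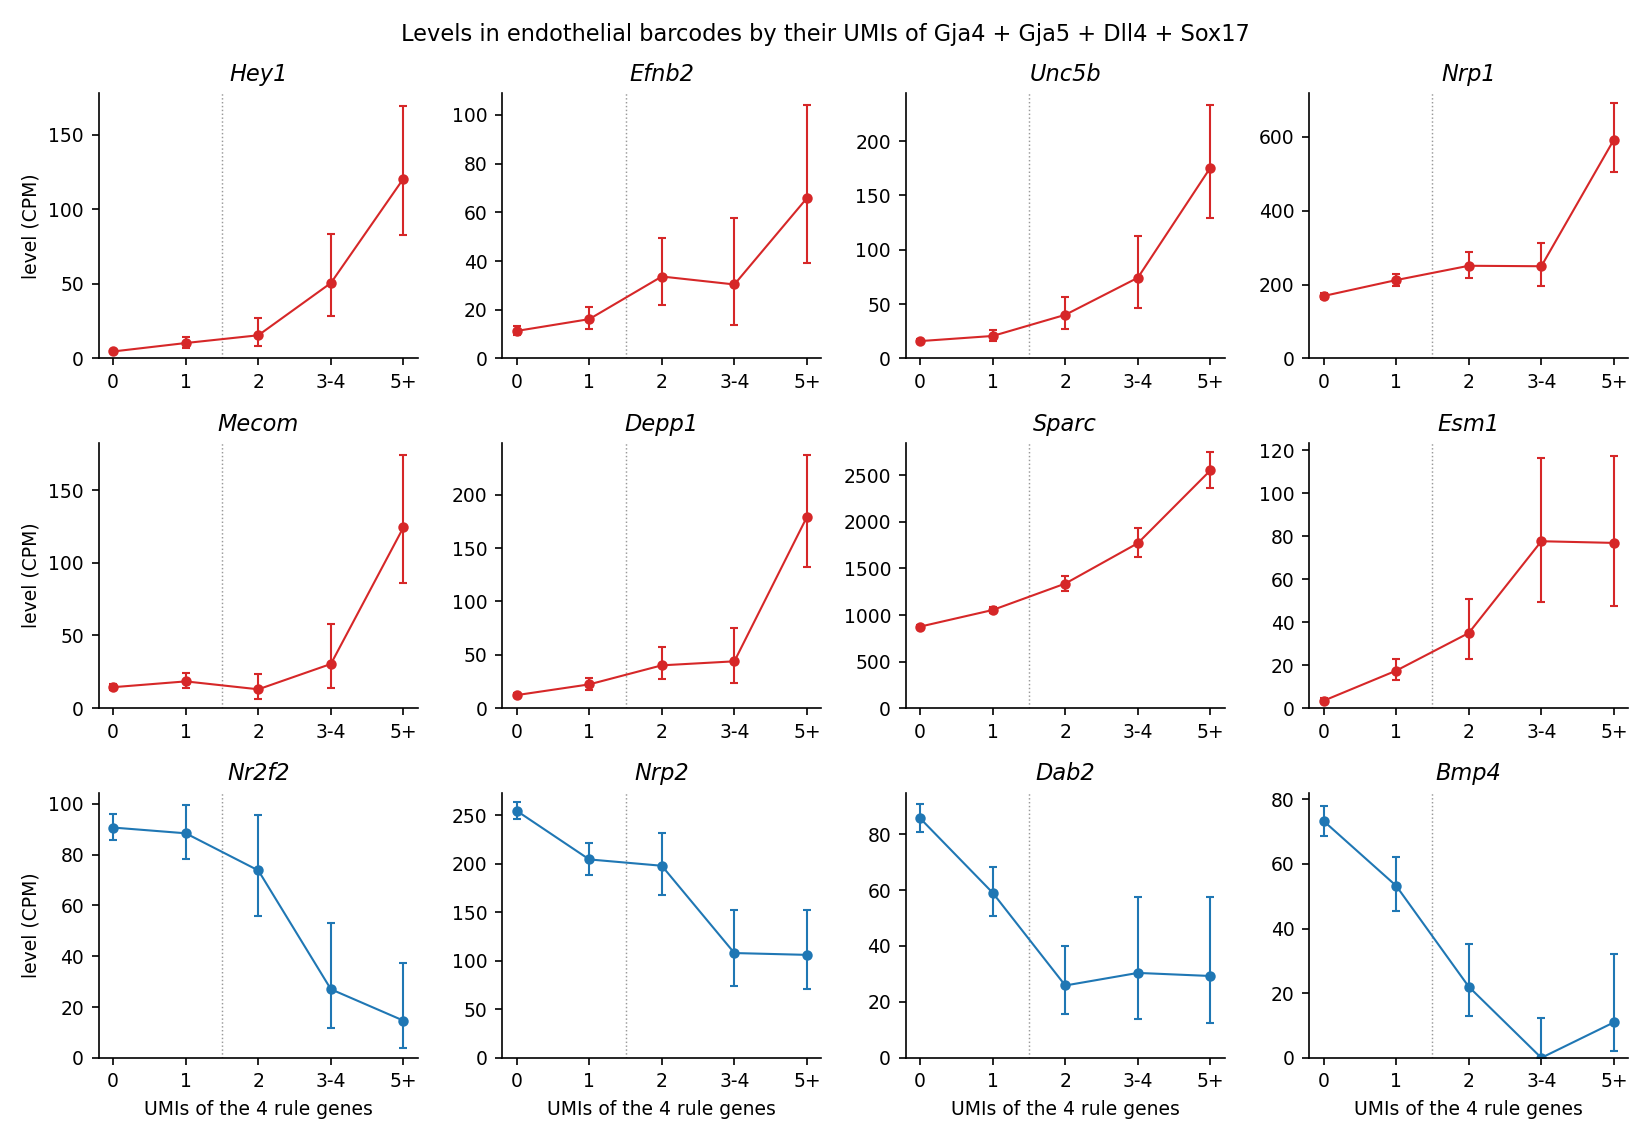
Level in CPM (vertical) of 12 genes, 1 panel each, in gate barcodes with 0, 1, 2, 3 to 4 and 5 or more summed UMIs of the 4 rule genes (horizontal); points are summed counts, bars exact Poisson 95% intervals, and the dotted line the threshold of membership. Hey1, Unc5b and Sparc are highest at 5 or more UMIs, Nr2f2 lowest there, and Dab2 and Bmp4 are already low at 2.

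The 37 barcodes with at least 5 rule-gene UMIs gave more calls against the same 1950 barcodes, without a check of direction because no library held 20 of them. Of 8059 genes 148 were called higher (1.84%) and 28 lower (0.347%), and the median of all was 0.08. The highest was Acta2 (556 CPM, 94.7% of its UMIs in 2 barcodes), and the smooth muscle genes Tagln and Myl9 were also called higher. The list of smooth muscle markers stood at 776 CPM, against 10.3 CPM at 2 UMIs and 16.9 CPM at 3 or 4. Neural markers stood at 593 CPM, against 154 and 321 CPM. The part of these markers in the calls was not tested. In the arterial list 11 of 22 genes were called higher. In the venous and lymphatic list 4 of 16 were called lower, Nr2f2, Nrp2, Aplnr and Dab2, and Vwf was called higher. In the matrix list 8 of 26 were called higher. Of the genes linked to haematopoietic emergence Mecom, Procr, Cd34 and Cd93 were called higher, and of the response to blood flow Edn1. The summed arterial list was 624 CPM in the barcodes with 2 UMIs and 800 CPM in those with 3 or 4, against 1855 CPM at 5 or more.

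The members were not alike, and the rule genes they carried went with different levels of the rest. They were placed in 4 classes after the data had been seen: 14 with Gja5, 65 with Gja4 but no Gja5, 28 with Dll4 but neither connexin, and 34 with Sox17 alone. The summed arterial list, which holds no rule gene, was 2945 CPM (2589 to 3336) in the Gja5 class, 1052 CPM (969 to 1141) in the Gja4 class, 869 CPM (765 to 983) in the Dll4 class and 333 CPM (279 to 394) in the Sox17 class, against 395 CPM (385 to 405) in the other endothelial barcodes. The venous and lymphatic list ran the other way, with 405 CPM (281 to 566), 676, 766 and 1163 CPM (1061 to 1273) against 1088 CPM. The matrix list had 6080, 4660, 4074 and 2240 CPM against 2494 CPM. On all 3 lists the Sox17 class was near the other endothelial barcodes and away from the other members, so for these 34 barcodes the arterial label rests on the rule alone.

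The order held in both large libraries. In library 5 the arterial list summed to 2221 CPM in 7 Gja5 barcodes, 1055 CPM in 29 Gja4 barcodes, 567 CPM in 7 Dll4 barcodes and 280 CPM in 11 Sox17 barcodes, against 408 CPM in the others. In library 6 it was 3139, 1049, 980 and 362 CPM in 4, 34, 19 and 17 barcodes, against 384 CPM. The Dll4 class differed most between the libraries relative to its level. Median depth was 5813 UMIs in the Gja5 class, 8022 in the Gja4 class, 9885.5 in the Dll4 class and 10541 in the Sox17 class, so the class with the highest arterial list had the shallowest barcodes, and the part of depth in these differences was not tested.

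**Figure D5:**
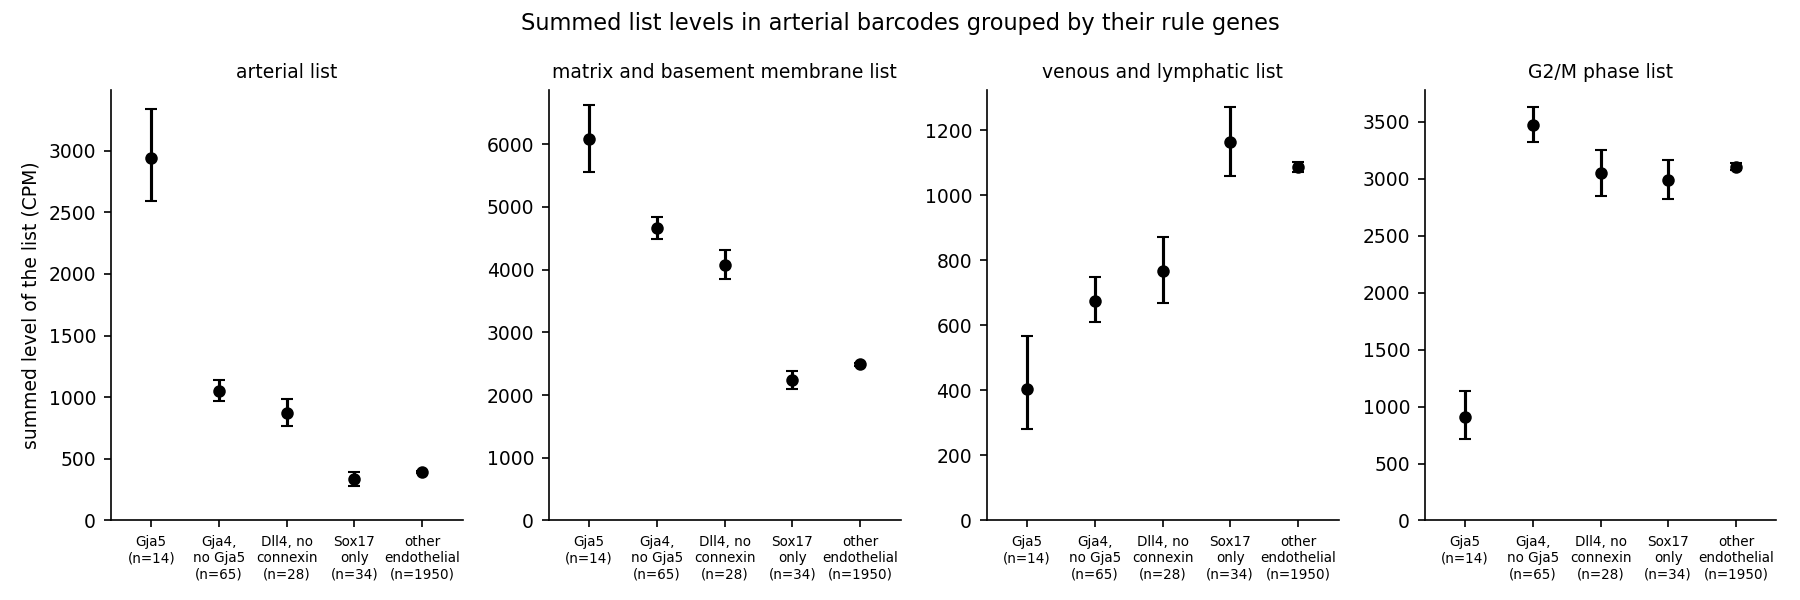
Summed level in CPM (vertical) of the arterial, matrix, venous and lymphatic, and G2/M lists in the 4 classes of members and the other endothelial barcodes (horizontal); points are summed counts with exact Poisson 95% intervals. The arterial list falls from 2945 CPM in the Gja5 class to 333 CPM in the Sox17 class, and the G2/M list is lowest, at 906 CPM, in the Gja5 class.

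The Gja5 class had 83885 summed UMIs, so 1 UMI was worth about the level of its lowest genes, 11.9 CPM. Within that limit it held the highest levels of Hey1 (167 CPM, against 62.4, 34.2 and 2.46 CPM in the Gja4, Dll4 and Sox17 classes), Efnb2 (143, 33.9, 47.9 and 19.7 CPM), Nrp1 (799, 364, 335 and 150 CPM) and Unc5b (286, 96.3, 47.9 and 22.2 CPM). Mecom had 274 CPM there and 33.9, 30.8 and 4.93 CPM in the other classes, Vegfc 167 against 12.5, 3.42 and 2.46 CPM, and Tmem100 191 against 8.92, 0 and 2.46 CPM. In the Gja5 class 42.9% of the 14 Vegfc UMIs and 68.8% of the 16 Tmem100 UMIs lay in 2 barcodes. The class pools 7 barcodes of library 5, 4 of library 6, 1 of library 3 and 2 of library 4. Fn1 had 703, 210, 168 and 61.6 CPM. Procr stood at 119 CPM, against 10.7, 6.84 and 4.93 CPM, and Vwf at 167 against 23.2, 17.1 and 7.39 CPM. Nr2f2 had 11.9 CPM, 1 UMI, against 23.2, 34.2 and 111 CPM. The G2/M list had 906 CPM (714 to 1134) in the Gja5 class and 3472, 3048 and 2992 CPM in the others, with the mitotic gene Cenpf at 1 UMI (11.9 CPM) against 269, 284 and 180 CPM, while the S phase list had 1884, 1737, 1584 and 1809 CPM.

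The Gja5 class also had the highest sum of the Hox list, 846 CPM against 373, 253 and 426 CPM, and of the neural marker list, 1109 CPM against 326, 195 and 106 CPM. The latter was mostly Stmn2, a microtubule regulator better known from neurons, at 954 CPM against 107, 10.3 and 9.86 CPM, with 57.5% of its 80 UMIs in 2 barcodes. Over all members the neural list was at 280 CPM against 204 CPM in the other endothelial barcodes, and 6 of its 8 genes (Sox2, Tubb3, Elavl3, Sox1, Pax6 and Neurod1) had 0 UMIs in the members. Other marker lists were raised in the Gja5 class too: smooth muscle and pericyte at 238 CPM (146 to 368) against 15.0 CPM in the other endothelial barcodes, erythroid at 95.4 CPM (41.2 to 188) against 25.7 CPM and epithelium at 47.7 CPM (13.0 to 122) against 4.50 CPM, from 20, 8 and 4 UMIs. Macrophage markers were at 0 there. The part of these markers in the levels of the Gja5 class was not tested.

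The Dll4 class had the highest levels of Kcne3, Esm1 and Adm, named after their values had been seen. Kcne3 had 366 CPM (300 to 442) there against 95.4 CPM in the Gja5, 105 CPM in the Gja4 and 96.1 CPM in the Sox17 class, and Esm1 137 CPM (97.8 to 186) against 47.7, 44.6 and 4.93 CPM. Adm had 92.4 CPM against 23.8, 35.7 and 2.46 CPM. Slc2a1 was highest in the Gja4 class, at 446 CPM against 143, 246 and 106 CPM in the Gja5, Dll4 and Sox17 classes. The glycolysis list had 8659 CPM in the Gja4, 8497 CPM in the Dll4, 7345 CPM in the Sox17 and 5567 CPM in the Gja5 class. In the other endothelial barcodes it had 6837 CPM. Vwa1 (127 CPM in the Gja4 class, 95.8 CPM in the Dll4 class) and Car2 (78.5 and 88.9 CPM) were not seen in the Sox17 class, whose 95% upper bound was 9.09 CPM. Bmp4 was not seen in the Dll4 class (upper bound 12.6 CPM), and was at 7.13 CPM in the Gja4 and 37.0 CPM in the Sox17 class. Dab2 was at 17.3 CPM in the Sox17 class against 80.6 CPM in the other endothelial barcodes, so it was low also where the arterial list was not raised.

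Splitting the members by single rule genes gave the genes behind these classes. Members without the gene of a split need 2 UMIs of the other 3, so the sides differ in those by construction. With Dll4 (60 members against 81), 18 of 7843 genes were called higher (0.23%) and 9 lower (0.115%). The highest were Esm1 (111 against 11.5 CPM), Cdc42ep3 (73.6 against 8.91 CPM), Adm (75.3 against 10.2 CPM), Kcne3 (291 against 65.0 CPM) and Ramp3 (98.7 against 29.3 CPM), and the lower ones were Acta2 (8.97 against 190 CPM), Kif23 (14.4 against 54.8 CPM), Prl3b1 (8.97 against 56.0 CPM), Gadd45g (32.3 against 115 CPM) and Nr2f2 (23.3 against 71.3 CPM). Over all members Gadd45g had 80.4 CPM, against 41.4 CPM in library 5 and 42.0 CPM in library 6, so its level leaned on other libraries. Of the 22 genes of the arterial list 2 were called higher.

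With Gja4 (78 members against 63), 55 of 7709 genes were called higher (0.713%) and 8 lower (0.104%), with direction checked in library 6 only. The highest was Acta2 (238 against 2.84 CPM, 94.7% in 2 barcodes), followed by Stmn2 and the myosin light chain gene Myl9 (59.5 against 4.26 CPM, 50% in 2 barcodes), and Acta2 and Myl9 are on the smooth muscle list. Clec14a, an endothelial lectin, had 105 against 17.0 CPM, Apoe 130 against 27.0 CPM and Stmn2 218 against 11.4 CPM, and among the lower genes Nr2f2 had 21.9 against 78.1 CPM and Odc1, of polyamine synthesis, 119 against 365 CPM, beside Cnrip1 (18.8 against 68.2 CPM), Glrx5 (23.5 against 69.6 CPM) and Glipr2 (34.5 against 90.9 CPM). In the arterial list 5 of 22 genes were called higher. With Sox17 (82 members against 59), 12 of 7890 genes were called higher (0.152%) and 27 lower (0.342%). Prl3b1 (52.6 against 4.45 CPM), Isyna1 (90.7 against 24.5 CPM), Nr2f2 (68.3 against 17.8 CPM), Tma16 (61.6 CPM in the members with Sox17) and Etv2 (84.0 against 15.6 CPM, 44% in 2 barcodes) were higher, and Stmn2 (38.1 against 251 CPM), Unc5b (42.5 against 140 CPM), Tgfb2 (12.3 against 53.4 CPM), Grn (16.8 against 60.1 CPM) and Cav1 (13.4 against 55.6 CPM) lower. Of the arterial list 5 of 22 genes were called lower, and of the venous and lymphatic list 2 of 16 higher. Members with Gja4 had a median of 7298 UMIs and those without 10138, and members with Sox17 9807 and those without 6924.

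Acta2, smooth muscle actin, had the largest ratio of all called genes, 115 CPM (97.3 to 134) against 0.616 CPM or 3.55, but 93.5% of its UMIs lay in 2 of the 7 members that had any, and the other 139 members had 7.49 CPM (3.59 to 13.8). These 2 barcodes, 1 in library 5 and 1 in library 6, held 77 and 97 UMIs of the smooth muscle list, with 5 and 9 UMIs of Gja4. Over all members that list stood at 168 against 15.0 CPM, 6 members had at least 5 of its UMIs, and its genes Pdgfrb and Myocd were at 0. In the Gja4 class it was at 350 CPM with these barcodes and 39.8 CPM without them. Without them 15 genes were called higher and 4 lower over all members. Of the other marker lists, mesenchyme was at 43.2 against 47.6 CPM with 6 of 10 genes at 0 (Pdgfra, Col1a1, Twist1, Prrx1, Postn and Lum). In the members 8 of 10 macrophage, 6 of 8 megakaryocyte and 5 of 10 erythroid genes were at 0. Some of these were also near 0 in the others, such as C1qa with 0 and Csf1r with 1 UMI. These lists summed to 10.4, 2.98 and 23.1 CPM in the members against 8.93, 22.1 and 25.7 CPM.

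A further 30 barcodes met the endothelial and arterial conditions but held UMIs of Runx1, Spi1 or Myb and were no members. They had Procr at 151 CPM, Neurl3, a gene of haemogenic endothelium, at 136 CPM, Mecom at 85.0 CPM and Kit at 66.4 CPM, with Aplnr not seen (upper bound 9.80 CPM). The list of emergence genes summed to 2115 CPM in these 30. It was 2087 CPM in the 121 gate barcodes with UMIs of Runx1, Spi1 or Myb that missed the arterial condition. Its level was thus not particular to the 30. Their arterial list was at 473 CPM, and macrophage markers were at 175 CPM, against 208 and 230 CPM in the 121. Libraries 7 and 8 held 6 and 9 of the 30. Dropping the condition on Runx1, Spi1 and Myb counted the 30 as members and also added the 121 barcodes to the comparison group. The resulting 171 members against 2071 others gave 14 genes called higher and 4 lower, of which 13 were among the 20 calls above.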

How the data were processed

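The deposited matrix holds raw UMI counts, pooled over the sorts, in 1 table of 27998 genes and 9492 barcodes with 78653331 UMIs, without normalisation by the authors. Per the submitters' processing notes, Cell Ranger and the mm10 build were used, with no version given in the sources used here. The gene and barcode names that the authors deposited carry no measured unit. Counts were summed over barcodes and divided by the total to give CPM. No p-values or tests were computed, since the barcodes cannot be assigned to the 3 sorts. Intervals are exact Poisson (levels) or Clopper-Pearson (shares) at 95%. Whole UMIs are counted once per molecule, but cells are not replicates.

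Calls used a pseudocount of 10 CPM, 2-fold, 50 CPM and agreement in direction between libraries with at least 20 barcodes of both groups. Doublets were kept in. An alternative removed the top 5% of doublet scores per library, 468 barcodes and 6 members among them. The calling step was run on simulated Poisson counts, with changes placed only in genes well above the 50 CPM limit. Barcodes of a group differed there in depth alone. It therefore cannot judge calls of genes near that limit or with UMIs held by few barcodes. The members, the 32 gene lists (446 genes) and the comparisons were chosen with earlier results of these data known, and the 4 classes by rule gene after the splits had been seen.

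Named genes were those of the rule, the 15 highest and 15 lowest called genes, up to 4 genes of each described list with the largest ratios, the 5 highest and 5 lowest called genes of each split, and the sort antigens. Others were chosen after their values had been seen. The split by Gja5 is given as levels only, since its 14 barcodes are too few for the limit of 50 CPM. Alternative pseudocounts, filters, scalings, rules and left-out libraries, 34 settings in all, were run. Python 3.11.15, numpy 2.4.6, scipy 1.17.1, pandas 2.3.3, scikit-learn 1.9.0 and matplotlib 3.10.9 were used.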

Additional observations from a re-analysis of the deposited data

How the results depend on the processing

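No paired analysis was possible because the matrix pools the sorts into 1 sample and gives no replicates. The 16 genes called higher and 4 called lower became 1 (Acta2) and 0 with a pseudocount of 50 CPM, 65 and 12 at 1.5-fold, 50 and 8 with at least 3 rule-gene UMIs, 40 and 11 with at least 2 different rule genes, and 57 and 10 without Sox17 in the rule. Without Gja4 in the rule 8 were higher and 4 lower, and 12 of the 20 calls were kept. Acta2, Car2, Ecm1, Nid2, Ramp3, Slc2a1, Sox7 and Vwa1 were lost. Without Dll4 11 were higher and 2 lower, and 11 of the 20 calls were kept. Car2, Ecm1, Esm1, Flrt2, Igfbp3, Kcne3, Nid2, Prl3b1 and Ramp3 were lost. With barcodes of 5 or more UMIs of other cell types removed (103 members left) 2 were lower. Thinning to 3000 UMIs before the rule left 44 members and gave 191 higher and 90 lower, with direction checked in library 5 only. These calls, and the list median after thinning given below, rest on few counts in the members. Alternatives chosen after seeing the data gave 148 and 28 (at least 5 UMIs) and 80 and 11 (at least 2 UMIs of Gja4 and Gja5), and in the latter Kcne3 turned to -0.20. The median of the arterial list, 0.98, was 1.58 and 0.39 with pseudocounts of 1 and 50 CPM, 0.70 without a filter on low values, 0.76 with barcodes of other cell types removed, 1.33 with at least 3 UMIs, 1.45 with 2 different genes, 1.45 without Sox17, 2.00 after thinning, 1.58 with at least 5 UMIs and 1.33 with Gja4 and Gja5. With list genes kept by their level over the whole gate, also chosen after seeing the data, it was 0.90. Apart from that setting and the one without a filter, list genes were kept anew by at least 10 CPM in a group. Genes could thus enter only through the members, where they were high, and the medians are not over 1 set of genes. At least 5 UMIs kept 19 arterial genes, against 15 in the main comparison. The cause of the differences between settings was not tested. The median of the venous and lymphatic list stayed negative in all of these.

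Leaving out 1 library at a time gave 11 to 20 higher and 4 lower genes. Without library 6, Esm1, 8430408G22Rik (Depp1), Car2, Cdkn1a, Ecm1, Kcne3, Nid2, Prl3b1, Ramp3 and Vwa1 lost their calls, and without library 5 Sox7 lost its call. Unc5b, Sat1, Sparcl1 and Bmp4 lost theirs only with a pseudocount of 50 CPM. TMM scaling, with a log2 factor of 0.07, ended the calls of Sox7 and Ramp3, equal weight per library that of Esm1, and removal of the top 5% of doublet scores none of the 20, though 0 of the 2 barcodes that hold most Acta2 UMIs were among those removed. Genes such as Hey1 and Efnb2, below the limit of 50 CPM, could not be called, and a level in the 14 Gja5 barcodes rests on few UMIs.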
